A study of Mus musculus with 8 samples.

Results

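Bile acid transport in hepatocytes and its control by the farnesoid X receptor (FXR) were described here through 10 genes in mouse primary hepatocytes. The genes were taken by name from the deposited table of read counts, which lists 56748 genes, and all 10 were found. They are the receptor gene Nr1h4 and its target Nr0b2, the uptake transporters Slc10a1, Slco1a1 and Slco1b2, the canalicular exporters Abcb11, Abcb4 and Abcc2, and the basolateral exporters Abcc3 and Abcc4. The series asked what a stiff substrate does to hepatocytes with and without YAP and TAZ, the transcriptional co-activators of the Hippo pathway. The hepatocytes came from C57BL/6J mice whose Yap and Taz genes both carried floxed alleles (Yap fl/fl, Taz fl/fl). Their age is given as 7 to 8 weeks, which the study's methods state for the time of virus injection. For primary hepatocytes in general the methods state mice of 8 weeks. Every mouse received an adeno-associated virus of serotype AAV8 with the TBG promoter, which is active in hepatocytes. In the wild-type (WT) groups this virus carried no gene (AAV8-TBG-Null), and in the Yap/Taz knockout (KO) groups it carried the Cre recombinase (AAV8-TBG-Cre). The deletion was thus confined by design to hepatocytes, and any other liver cell in the preparation kept both genes. The study's methods also describe a ROSA26-LSL-tdTomato reporter allele in the floxed line, which Cre switches on. KO cells thus differed from WT cells in Cre and, where that allele was present, in the reporter as well. After 10 days the hepatocytes were isolated and then cultured for 24 h on collagen-coated hydrogels of 1 kPa (soft) or 20 kPa (stiff), and each of the 4 groups had 2 RNA sequencing libraries.

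Bile acids are made from cholesterol in hepatocytes and circulate between the liver and the intestine. Hepatocytes take them up from the blood across the basolateral membrane, mainly through the sodium-dependent NTCP (Slc10a1) and the sodium-independent OATP proteins (Slco genes), and pump them into bile across the canalicular membrane through BSEP (Abcb11). The other canalicular pumps are MDR2 (Abcb4), which moves phosphatidylcholine to the bile side of the membrane, and MRP2 (Abcc2), which exports bilirubin conjugates and other organic anions. MRP3 (Abcc3) and MRP4 (Abcc4) lie in the basolateral membrane and return bile acids and conjugates to the blood, a route known to be used in cholestasis. FXR is the nuclear receptor that bile acids activate. It binds DNA with the retinoid X receptor at inverted repeats of the hexamer AGGTCA, and among its known target genes are Abcb11 and Nr0b2, whose product SHP is a corepressor without a DNA-binding domain.

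The DNA before the RNA start sites of 5 genes is shown as examples of the response patterns described below. Abcb11 was called between genotypes and not between hydrogels. Slco1b2, Slco1a1, Abcc2 and Abcb4 fell on the stiff hydrogel in WT hepatocytes. Slc10a1, which had the same calls as Abcb11, and Abcc4, which also fell in WT, are not shown. Each sequence is the 250 bases upstream of the start on the strand of the gene, from RefSeq's annotation of build GRCm38.p6. The windows were Abcb11 at chr2:69342617-69342866 (minus strand), Slco1b2 at chr6:141629268-141629517 (plus strand), Slco1a1 at chr6:141946963-141947212 (minus strand), Abcc2 at chr19:43782058-43782307 (plus strand) and Abcb4 at chr5:8893471-8893720 (plus strand). Capitals mark the hexamer AGGTCA on either strand or, in the first pair, the inverted repeat with 1 mismatch that contains it.
Abcb11: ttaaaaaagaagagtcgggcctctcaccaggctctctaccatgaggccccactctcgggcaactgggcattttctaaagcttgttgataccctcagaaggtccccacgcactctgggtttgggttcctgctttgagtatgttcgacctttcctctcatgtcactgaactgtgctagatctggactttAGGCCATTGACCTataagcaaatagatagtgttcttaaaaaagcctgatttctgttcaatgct
Slco1b2: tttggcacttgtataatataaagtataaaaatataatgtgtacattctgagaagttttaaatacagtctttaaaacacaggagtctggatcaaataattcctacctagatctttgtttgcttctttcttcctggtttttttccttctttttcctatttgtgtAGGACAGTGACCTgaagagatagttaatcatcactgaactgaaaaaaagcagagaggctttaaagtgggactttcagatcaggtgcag
Slco1a1: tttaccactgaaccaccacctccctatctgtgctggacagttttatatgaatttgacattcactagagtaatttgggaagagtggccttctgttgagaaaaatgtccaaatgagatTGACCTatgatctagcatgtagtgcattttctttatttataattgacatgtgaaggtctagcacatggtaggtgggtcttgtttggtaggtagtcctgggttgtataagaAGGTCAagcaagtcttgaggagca
Abcc2: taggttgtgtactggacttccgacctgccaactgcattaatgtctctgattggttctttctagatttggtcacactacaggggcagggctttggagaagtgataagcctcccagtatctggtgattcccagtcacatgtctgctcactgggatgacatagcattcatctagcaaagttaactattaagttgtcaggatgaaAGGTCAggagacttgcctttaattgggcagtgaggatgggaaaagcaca
Abcb4: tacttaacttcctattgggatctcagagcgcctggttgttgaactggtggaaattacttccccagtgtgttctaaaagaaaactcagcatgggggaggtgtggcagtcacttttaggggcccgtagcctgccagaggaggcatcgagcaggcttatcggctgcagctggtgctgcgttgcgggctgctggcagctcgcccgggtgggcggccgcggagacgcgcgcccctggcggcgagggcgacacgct

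Promoters of 9 of the 10 genes could be matched, with 11 start sites in all, and that of Abcc3 was not. The hexamer AGGTCA, searched on both strands, occurred before a start of 6 of the 9 genes (Nr1h4, Slc10a1, Slco1a1, Slco1b2, Abcb11 and Abcc2). It occurred in 14.0% of all 32851 promoters of the same length. Members were counted as genes with the hexamer before any start and the background as single promoters, so the units differ. Slc10a1 held it before only 1 of its 2 starts. The inverted repeat AGGTCANTGACCT, which overlaps the hexamer search by containing the hexamer on each strand, had no exact match before any of the 9 genes and 0.00609% of all promoters held one. With at most 1 mismatch it was found before 2 of the 9 genes and in 0.0791% of all promoters. For Slc10a1, which had the same calls as Abcb11, the closest match had 3 mismatches at either start. Counted from 1 at the first base of the repeat, with the base of the repeat first, the site of Abcb11 was T4C and began 63 bases before the start, and that of Slco1b2 was T4A and began 88 bases before the start. Slco1a1 held the hexamer at 134 and at 24 bases before its start and Abcc2 at 49 bases. The hexamer GGAATG, the element read by the TEAD proteins through which YAP and TAZ act, was in none of the 9 genes' windows and in 12.6% of all promoters. These matches describe letters in short windows, and binding was not measured.

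**Figure D1:**
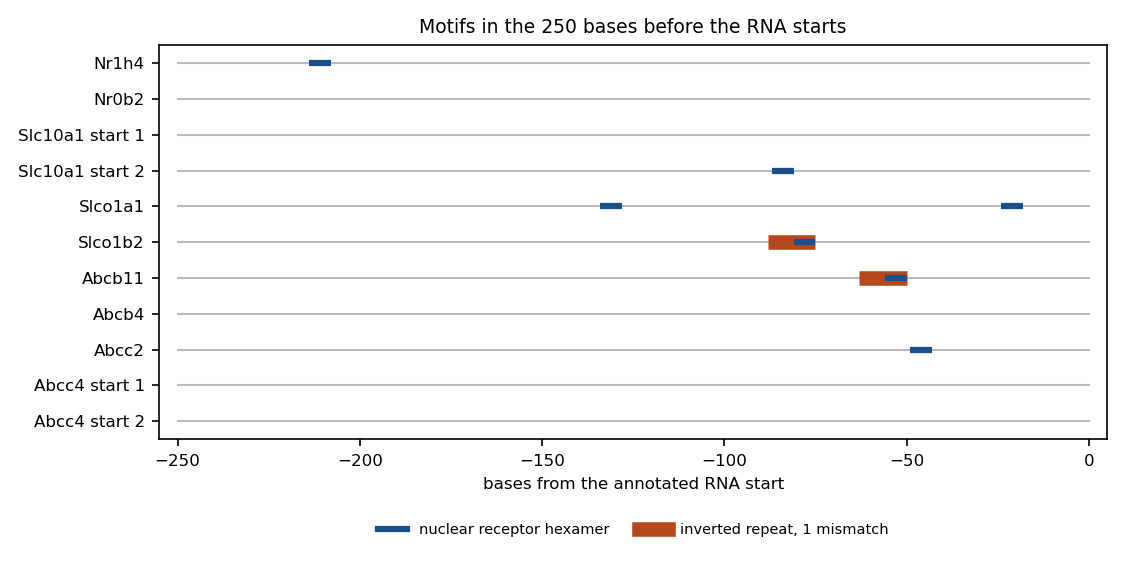
Motif positions in the 250 bases before each annotated RNA start (horizontal axis, bases from the start) for the 9 matched genes, Slc10a1 and Abcc4 having 2 starts each. Blue blocks are the hexamer on either strand and red blocks the inverted repeat with 1 mismatch, which only Abcb11 (63 bases before the start) and Slco1b2 (88 bases) carry.

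Library totals ran from 18324083 to 26442310 counts, and 14279 genes, all 10 members among them, had enough counts to be tested. Levels are given as normalized CPM, which is the count over the scaled library total as edgeR's cpm function gives it with TMM factors that were between 0.978 and 1.02. On that scale 3 counts, which is as much as 0 counts can hide at 95% confidence, came to 0.116 to 0.167 CPM, and this covers counting error only. The targeted genes followed the labels, although their RNA did not disappear in KO libraries. Yap1 was at 99.8 and 95.5 CPM in WT soft, 140.5 and 135 in WT stiff, 29.2 and 31.8 in KO soft and 28.4 and 31.3 in KO stiff libraries. Wwtr1, which encodes TAZ, was at 42.5 and 41.5 CPM in WT soft, 63.9 and 65.2 in WT stiff, 16.0 and 16.6 in KO soft and 15.7 and 13.7 in KO stiff. The log2 fold change between KO and WT was -1.68 (soft) and -2.20 (stiff) for Yap1, and -1.37 (soft) and -2.13 (stiff) for Wwtr1. The labels give both sexes for the mice, female in the design text and male in the growth protocol. Xist had 4818 to 8443 counts in every library and Ddx3y, Eif2s3y, Kdm5d and Uty had 0, which is the pattern of female cells. The counts thus go with the female label and not with the male one. The sex bears on Slco1a1, a gene known for higher expression in male than in female mouse liver.

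Hepatocyte markers dominated every library. The summed level of Alb, Apoa1, Ttr, Cps1, Asgr1 and Tat was 87283 to 88026 CPM in WT soft, 90489.6 to 92006 in WT stiff, 60287 to 60740.4 in KO soft and 60110.3 to 60295 in KO stiff libraries, with all 6 detected in each. The 6 Kupffer cell markers, all detected, summed to 33.1 to 37.0, 21.5 to 24.8, 55.2 to 57.4 and 56.8 to 60.6 CPM in the same order. The 5 endothelial markers, all detected, summed to 35.3 to 39.9, 24.6 to 25.0, 52.7 to 53.5 and 53.7 to 56.2 CPM, and the 6 stellate cell markers, of which Lrat had at most 4 counts, to 21.4 to 22.0, 17.0 to 17.6, 27.8 to 30.7 and 28.3 to 31.1 CPM. The 6 cholangiocyte markers summed to 548 to 584, 599 to 602, 344 to 348 and 320.4 to 333 CPM, with Cftr at 0 counts in all libraries and Krt7 at no more than 3 counts. The sums of Kupffer, endothelial and stellate markers were thus lowest in WT stiff and highest in the KO groups, the same order as Abcb4, Abcc2, Abcc4 and Slco1a1 below. The hepatocyte sum, which is mostly Alb, and the cholangiocyte sum, which is mostly Spp1, were lower in both KO groups than in both WT groups, as were Slc10a1 and Abcb11. The single markers of these lists differed. Cps1 and Krt19 were also lower in both KO groups, whereas Ttr and Tat were higher in both. The libraries of Apoa1, Asgr1, Sox9 and Epcam overlapped between the genotypes. The part of these differences in the results was not tested. In bulk RNA, fewer cells of a type and less RNA per cell cannot be told apart.

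Compared per gene length, Abcc3, Abcc2 and Abcb4 were above every uptake transporter and receptor gene in each group, and Abcb11 was not. In WT hepatocytes on the soft hydrogel the levels per kilobase of gene model were 138 ± 3.15 CPM for Abcc3, 75.3 ± 2.20 for Abcc2, 64.5 ± 1.03 for Abcb4 and 29.4 ± 1.38 for Abcc4 (mean ± SD, n = 2). They were 14.3 ± 0.785 for Slc10a1, 10.3 ± 0.269 for Nr1h4, 4.22 ± 0.346 for Abcb11, 3.65 ± 0.148 for Slco1b2, 1.39 ± 0.125 for Slco1a1 and 0.296 ± 0.275 for Nr0b2. The libraries of neighbours in this order did not overlap. On the stiff hydrogel Abcc4 (11.2 ± 0.0917 CPM per kilobase) moved below Slc10a1 (12.0 ± 0.538), and the rest of the order stayed. In both KO groups Nr1h4 ranked above Slc10a1, and the libraries of Slco1a1 and Abcb11 overlapped, with 2.49 ± 0.213 and 2.36 ± 0.169 CPM per kilobase in KO soft and 2.31 ± 0.216 and 2.35 ± 0.280 in KO stiff. BSEP, the main bile acid pump of the canalicular membrane, had an RNA level per length below that of Nr1h4 in every group. All these ranks rest on the length of the gene model. For Abcb4 that length is 9383 bases and its longest transcript 4079, against 5698 and 5005 for Abcc3 and 8532 and 8027 for Abcc2. By the longest transcript Abcb4 would rank above Abcc2 in WT soft, where they were at 605 ± 9.71 and 642 ± 18.8 CPM. In KO soft Abcb4 would also rank above Abcc3, with 734 ± 12.3 against 812 ± 14.2 CPM. The rest of the order by transcript length was not computed and could differ.

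**Figure D2:**
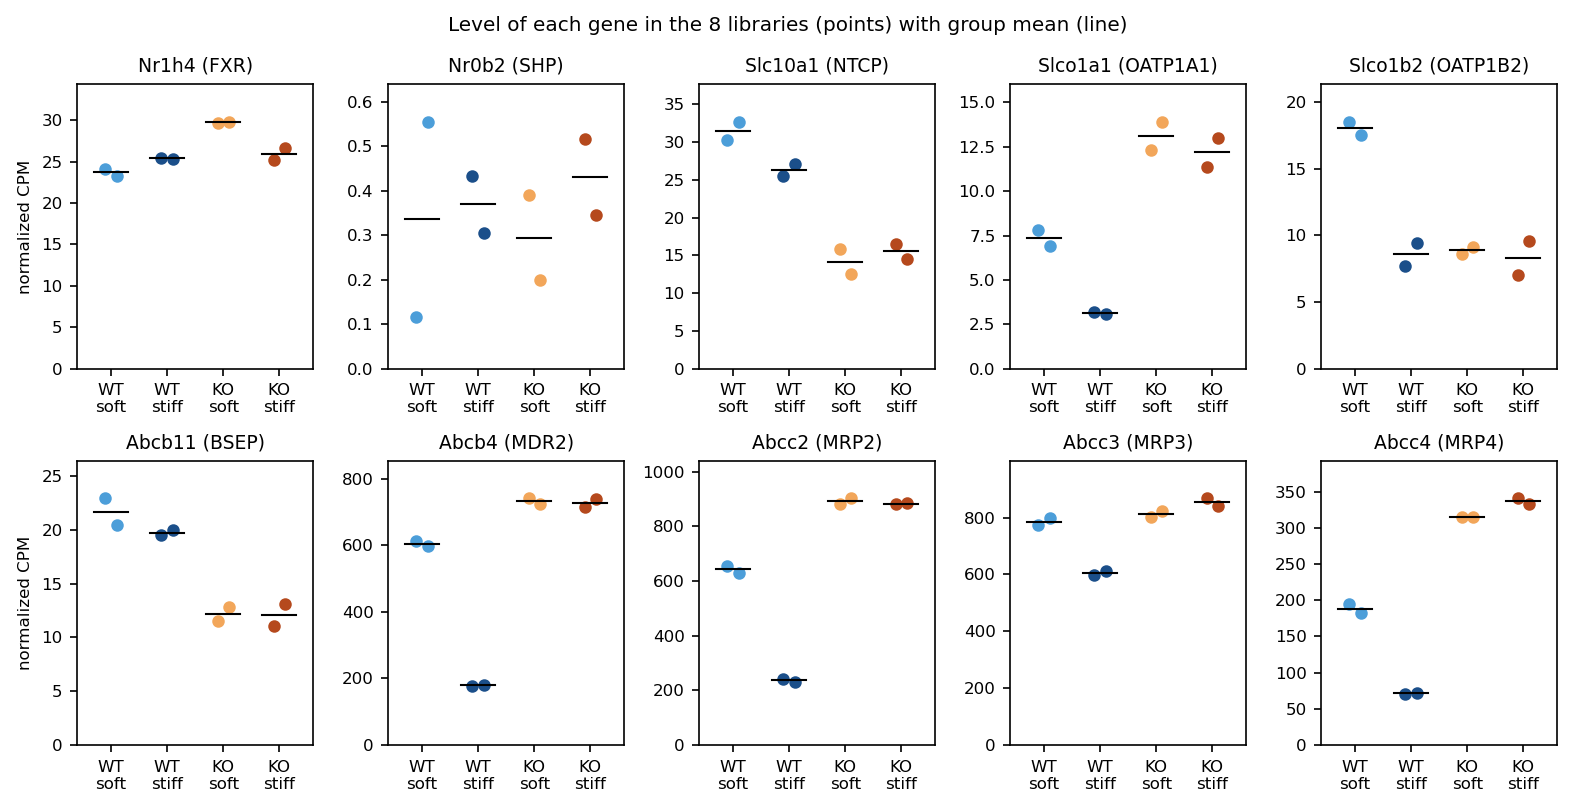
Normalized CPM (vertical axes, each starting at 0) of the 10 genes in the 8 libraries, 2 points per group with a line at their mean. Abcb4, Abcc2 and Abcc4 are lowest in both WT stiff libraries, whereas Slc10a1 and Abcb11 are lower in all 4 KO libraries than in all 4 WT libraries.

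On the stiff hydrogel, WT hepatocytes had less RNA of 5 of the 10 genes and more of none. Abcb4, Abcc2, Abcc4, Slco1a1 and Slco1b2 fell, by between 2.10-fold and 3.38-fold. A gene was called changed if its p from edgeR's quasi-likelihood test, adjusted by Benjamini and Hochberg's method over all 14279 tested genes, was under 0.05 and its log2 fold change exceeded 0.5 in size. Over all tested genes, 19.3% were called in this comparison, 10.0% higher and 9.26% lower. The groups did not overlap for 9 of the 10 genes, 8 lower and 1 higher, against a background of 68.9% (34.8% lower and 34.0% higher). The median log2 fold change of the 10 genes was -0.72, and that of all tested genes was -0.0087. By role, 2 of 3 uptake transporters, 2 of 3 canalicular exporters, 1 of 2 basolateral exporters and neither receptor gene fell. Nothing in the labels says that the 2 libraries of a group came from separate mice or cultures, so the p-values measure only the spread between these samples.

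In KO hepatocytes none of the 10 genes changed between the soft and the stiff hydrogel. The share of all genes called was 0.0210% (0.0140% higher and 0.00700% lower), and 2 of the 10 genes had an unadjusted p under 0.05, against 7.54% of all genes, namely Nr1h4 (0.0201) and Abcc4 (0.0390), with DESeq2 also calling none of the 10. Their log2 fold changes ran from -0.20 for Nr1h4 to 0.50 for Nr0b2, around a median of -0.011 with 0.0076 over all genes. The groups did not overlap for 3 of the 10 genes, Nr1h4 (lower) and Abcc3 and Abcc4 (higher), with a background of 38.1% (17.2% lower and 20.9% higher). For the abundant exporters the intervals were narrow. The 95% interval of the log2 fold change was -0.089 to 0.064 for Abcb4 and -0.090 to 0.062 for Abcc2.

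The stiffness effect itself differed between the genotypes for 5 genes. Abcb4, Abcc2, Abcc4, Slco1a1 and Slco1b2 passed the test of the interaction, which subtracts the WT from the KO stiffness effect, and all 5 differences were positive. Of all tested genes 16.8% were called in this test, 8.64% with a positive and 8.21% with a negative difference. The interaction uses the same 8 libraries as the other comparisons and is not separate evidence. The median difference was 0.71 over the 10 genes and 0.015 over all genes.

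**Figure D3:**
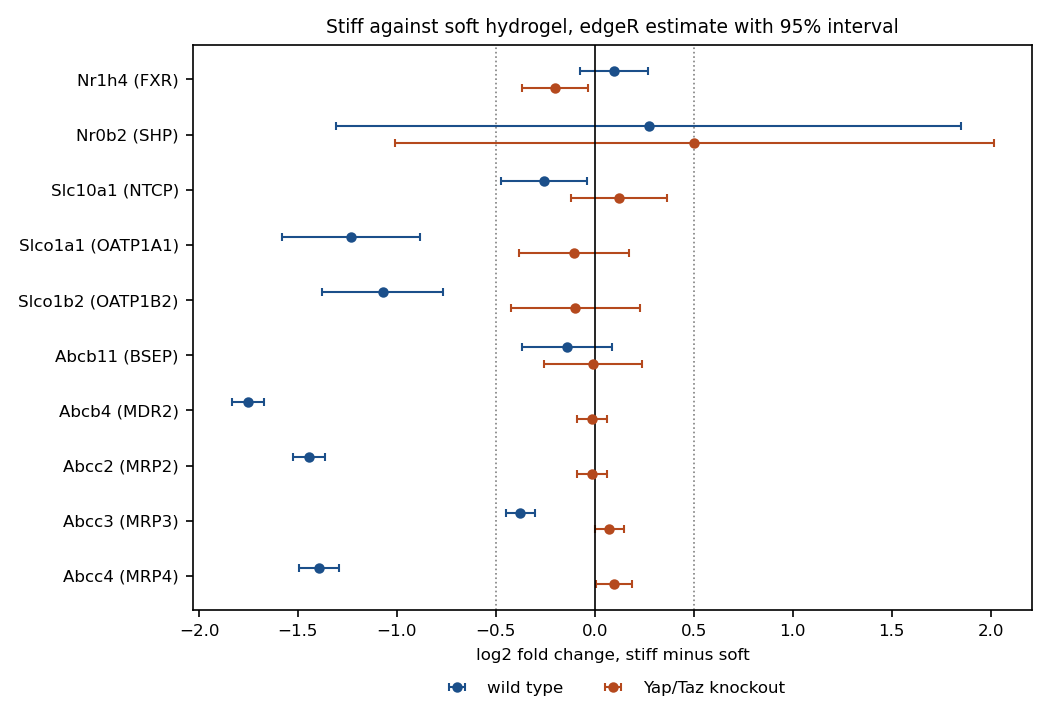
Log2 fold change between the stiff and the soft hydrogel (horizontal axis) for the 10 genes in WT (blue) and KO (red) hepatocytes, with 95% intervals from edgeR and dotted lines at the threshold of 0.5 in each direction. Abcb4, Abcc2, Abcc4, Slco1a1 and Slco1b2 lie beyond the lower threshold in WT, and no KO interval lies wholly beyond either threshold.

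Between the genotypes, genes differed in both directions. On the soft hydrogel Slco1a1 and Abcc4 rose and Slc10a1, Slco1b2 and Abcb11 fell in KO against WT hepatocytes, 5 of 10 genes against 6.67% of all tested genes (2.02% higher and 4.65% lower). The groups did not overlap for 9 of the 10 genes, 6 higher and 3 lower, with a background of 56.2% (27.6% higher and 28.6% lower). On the stiff hydrogel Slco1a1, Abcb4, Abcc2 and Abcc4 rose and Slc10a1 and Abcb11 fell, 6 of 10 genes against 28.7% of all tested genes (13.7% higher and 15.0% lower). There, 7 of the 10 genes did not overlap, 5 higher and 2 lower, with a background of 74.5% (37.7% higher and 36.8% lower). The median log2 fold change of the 10 genes was 0.16 on soft and 0.36 on stiff hydrogels, and over all genes -0.00031 and 0.011. The count on the soft hydrogel depended on the fold threshold, with 8 of the 10 genes without one (18.4% of all genes) and 2 with an absolute log2 fold change over 1 (2.47% of all genes).

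**Figure D4:**
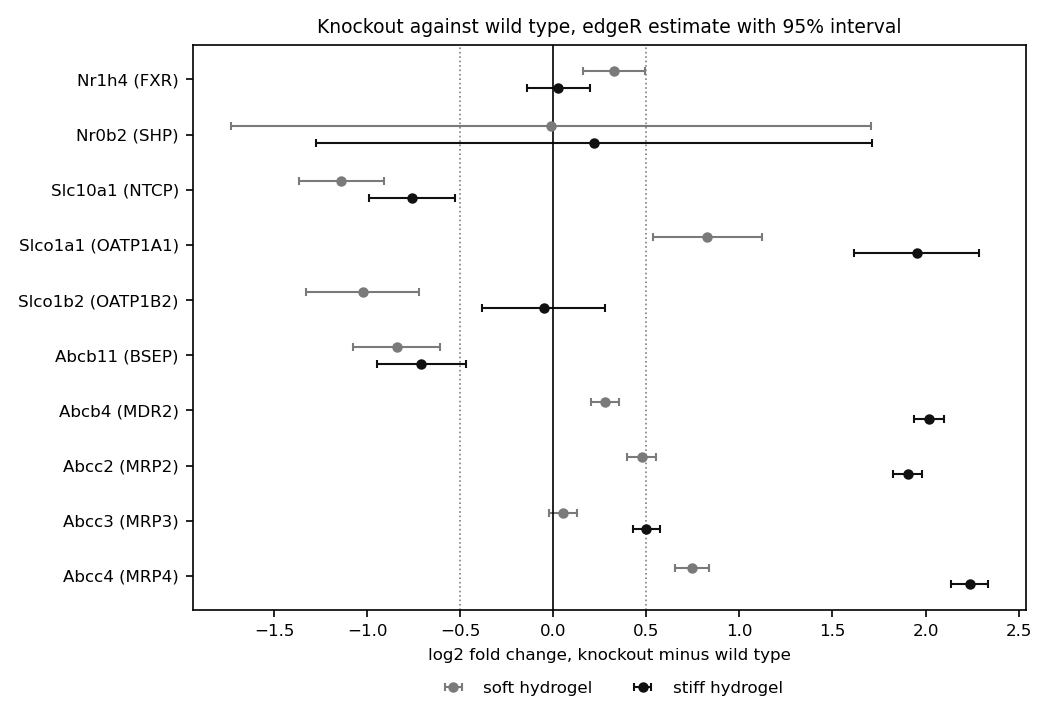
Log2 fold change between KO and WT hepatocytes (horizontal axis) for the 10 genes on the soft (grey) and the stiff (black) hydrogel, with 95% intervals from edgeR and dotted lines at 0.5 in each direction. Slc10a1 and Abcb11 are lower on both hydrogels, and Abcb4, Abcc2, Abcc4 and Slco1a1 are higher by 1.90 to 2.24 on the stiff hydrogel.

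The FXR gene itself was called in no comparison. Nr1h4 (ENSMUSG00000047638, chromosome 10 from 89290096 to 89369447 on the minus strand in the deposited table) was at 24.1 and 23.3 CPM in WT soft, 25.5 and 25.4 in WT stiff, 29.7 and 29.8 in KO soft and 25.2 and 26.6 in KO stiff libraries. The KO soft libraries were the highest, and their fitted level was 1.25 times that of WT soft. The log2 fold change between the hydrogels was 0.10 in WT, with a standard error of 0.081 and an adjusted p of 0.365 from edgeR's quasi-likelihood test. Between the genotypes on the soft hydrogel it was 0.33 (adjusted p = 0.00648 from edgeR), which passed the p threshold but not the threshold on size. It was 0.027 on the stiff hydrogel (95% interval -0.14 to 0.20). Within KO it was -0.20 between the hydrogels (edgeR's adjusted p = 0.610), and the interaction was -0.30 (edgeR's adjusted p = 0.0548). The gene of its usual partner, Rxra, was at 134 ± 2.46 CPM in WT soft and 121 ± 5.35 in WT stiff libraries (mean ± SD, n = 2), and its log2 fold change of -0.15 was likewise under the size threshold (edgeR's adjusted p = 0.0246).

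Nr0b2, the classical FXR target that encodes SHP (ENSMUSG00000037583, chromosome 4 from 133280687 to 133283847 on the plus strand in the deposited table), was barely detected. It had 3 and 10 counts in the WT soft libraries, 9 and 6 in WT stiff, 10 and 4 in KO soft and 11 and 7 in KO stiff, between 0.116 and 0.555 CPM. The ranges of all 4 groups overlapped, and 1 library was at the limit of 3 counts. The 95% interval of the WT stiffness effect, -1.31 to 1.85 on the log2 scale, was too wide to show a difference at this depth.

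The uptake transporters differed from one another in both responses. Slc10a1, the gene of NTCP (ENSMUSG00000021135, chromosome 12 from 80999957 to 81015479 on the minus strand in the deposited table), was at 30.3 and 32.7 CPM in WT soft, 25.5 and 27.1 in WT stiff, 15.8 and 12.5 in KO soft and 16.5 and 14.5 in KO stiff libraries. All 4 KO libraries were below all 4 WT libraries. The gene fell in KO hepatocytes 2.20-fold on the soft substrate (log2 fold change -1.14, standard error 0.11, edgeR's adjusted p = 3.44e-07) and 1.69-fold on the stiff hydrogel (-0.76, standard error 0.11, adjusted p = 1.36e-05). Between the hydrogels the log2 fold change was -0.26 in WT (95% interval -0.48 to -0.040, edgeR's adjusted p = 0.0548) and 0.12 in KO, and their difference of 0.38 did not pass (edgeR's adjusted p = 0.0755).

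Slco1a1, which encodes the organic anion transporter OATP1A1 (ENSMUSG00000041698, chromosome 6 from 141853008 to 141892688 on the minus strand in the deposited table), responded to the hydrogel in WT and was higher without YAP and TAZ. Its levels were 7.82 and 6.89 CPM in WT soft, 3.18 and 3.10 in WT stiff, 12.3 and 13.9 in KO soft and 11.4 and 13.0 in KO stiff libraries. Every KO library exceeded every WT library, and the WT stiff libraries were the lowest. In WT the gene fell 2.35-fold on the stiff hydrogel (log2 fold change -1.23, standard error 0.17, edgeR's adjusted p = 8.65e-06), whereas in KO the log2 fold change was -0.11 (95% interval -0.39 to 0.18). The difference between these effects was 1.13 (standard error 0.21, edgeR's adjusted p = 5.47e-04). KO exceeded WT 1.77-fold on soft (edgeR's adjusted p = 2.72e-04) and 3.87-fold on stiff hydrogels (adjusted p = 7.78e-09). Of the 64-base windows of its longest transcript, 1.80% also occur in related genes such as Slco1a4, Slco1a5 and Slco1a6, so a small part of its reads could belong to them.

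Slco1b2, the gene of OATP1B2 (ENSMUSG00000030236, chromosome 6 from 141575244 to 141632372 on the plus strand in the deposited table), moved opposite to Slco1a1 between the genotypes on the soft hydrogel. It was at 18.5 and 17.5 CPM in WT soft libraries and between 6.98 and 9.59 CPM in all 6 others. The WT soft libraries were thus the only high ones. It fell 2.10-fold on the stiff hydrogel in WT (log2 fold change -1.07, standard error 0.15, edgeR's adjusted p = 9.83e-06) and 2.04-fold with the deletion on the soft substrate (-1.03, standard error 0.14, adjusted p = 3.74e-05). Both comparisons share the WT soft libraries. KO and WT on the stiff hydrogel differed by -0.052 on the log2 scale (95% interval -0.38 to 0.28), and the interaction was 0.97 (standard error 0.21, edgeR's adjusted p = 0.00191).

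Of the canalicular genes, Abcb4 and Abcc2 fell on the stiff hydrogel in WT, and Abcb11 was called only between the genotypes. Abcb11, the gene of BSEP (ENSMUSG00000027048, chromosome 2 from 69068626 to 69172960 on the minus strand in the deposited table), was at 23.0 and 20.4 CPM in WT soft, 19.5 and 20.0 in WT stiff, 11.6 and 12.8 in KO soft and 11.1 and 13.1 in KO stiff libraries. The KO libraries were all below the WT libraries. In WT the log2 fold change on the stiff hydrogel was -0.14 (95% interval -0.37 to 0.086, edgeR's adjusted p = 0.326) and in KO it was -0.0089 (95% interval -0.26 to 0.24). The gene fell 1.79-fold in KO on the soft substrate (log2 fold change -0.84, standard error 0.11, edgeR's adjusted p = 1.94e-05) and 1.64-fold on the stiff hydrogel (-0.71, standard error 0.11, adjusted p = 4.22e-05). Its promoter window held the inverted repeat with 1 mismatch, as did that of Slco1b2, and neither held an exact match. The responses of these genes differed, as Slco1b2 was called lower on the stiff hydrogel in WT and Abcb11 was not. A link between the repeat and the levels was not tested.

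Abcb4, the gene of the phospholipid floppase MDR2 (ENSMUSG00000042476, chromosome 5 from 8943717 to 9009231 on the plus strand in the deposited table), had the largest fall of the 10 genes on the stiff hydrogel. It was at 612 and 599 CPM in WT soft and 178 and 181 in WT stiff libraries, a 3.38-fold fall (log2 fold change -1.75, standard error 0.038, edgeR's adjusted p = 2.03e-16). In KO libraries it was at 742 and 725 CPM on soft and 715 and 740.0 CPM on stiff hydrogels. All KO libraries lay above the WT soft libraries. The interaction was 1.74 (standard error 0.053, edgeR's adjusted p = 7.07e-14), and KO exceeded WT 4.05-fold on stiff hydrogels (adjusted p = 1.04e-17). On the soft hydrogel the excess was 1.21-fold (adjusted p = 1.83e-05 from edgeR), under the size threshold. Its longest transcript shares 2.09% of its windows with the paralogs Abcb1a and Abcb1b, and the pseudogene Gm17936 inside the gene had a mean of 5.25 counts per library.

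Abcc2, the gene of MRP2 (ENSMUSG00000025194, chromosome 19 from 43770631 to 43829179 on the plus strand in the deposited table), followed the same pattern. The libraries held 655 and 629 CPM in WT soft, 240.3 and 232 in WT stiff, 880.2 and 903 in KO soft and 883 and 884 in KO stiff. Only the WT stiff libraries were low. The fall in WT was 2.72-fold (log2 fold change -1.44, standard error 0.038, edgeR's adjusted p = 2.30e-15) and the interaction 1.43 (standard error 0.052, adjusted p = 8.30e-13). KO exceeded WT 3.74-fold on the stiff hydrogel (edgeR's adjusted p = 2.10e-17) and 1.39-fold on the soft hydrogel (adjusted p = 2.10e-08), the latter a log2 fold change of 0.47, just under the size threshold.

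The basolateral exporters differed in the size of their response. Abcc4, the gene of MRP4 (ENSMUSG00000032849, chromosome 14 from 118720104 to 118943631 on the minus strand in the deposited table), was at 194 and 182 CPM in WT soft, 71.2 and 72.0 in WT stiff, 315 and 316 in KO soft and 341 and 333 in KO stiff libraries. It fell 2.63-fold on the stiff hydrogel in WT (log2 fold change -1.39, standard error 0.047, edgeR's adjusted p = 7.82e-14) and the interaction was 1.49 (standard error 0.064, adjusted p = 6.44e-12). The KO libraries were the highest on either hydrogel, 1.68-fold above WT on soft (edgeR's adjusted p = 6.57e-10) and 4.71-fold on stiff hydrogels (adjusted p = 3.99e-17). The latter was the largest genotype difference among the 10 genes.

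Abcc3, the gene of MRP3 (ENSMUSG00000020865, chromosome 11 from 94234121 to 94283823 on the minus strand in the deposited table), had the highest level per kilobase of gene model and a smaller WT stiffness effect than Abcb4, Abcc2 and Abcc4. Its libraries held 772 and 798 CPM in WT soft, 599 and 611 in WT stiff, 802 and 822 in KO soft and 869 and 841 in KO stiff. As with Abcb4 and Abcc2, the WT stiff libraries were the lowest. The log2 fold change in WT was -0.38 (standard error 0.035, edgeR's adjusted p = 9.37e-08), larger than the spread between replicates and under the size threshold. The interaction of 0.45 (standard error 0.050, edgeR's adjusted p = 1.49e-06) was also under it. The KO exceeded the WT on the stiff hydrogel by 0.50 (edgeR's adjusted p = 1.05e-09), which before rounding was just under the size threshold, so that the count of 6 changed genes becomes 7 with the replicate number as a block.

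Summed by role and per gene length, RNA for canalicular export was lowest in WT stiff libraries. The sum of Abcb11, Abcb4 and Abcc2 was 144 ± 3.59 CPM per kilobase in WT soft, 50.6 ± 0.377 in WT stiff, 185 ± 0.776 in KO soft and 183 ± 2.27 in KO stiff hepatocytes (mean ± SD, n = 2). The sum of Abcc3 and Abcc4 was 167 ± 1.77, 117 ± 1.56, 192 ± 2.55 and 203 ± 4.28 CPM per kilobase. The sum of the uptake genes Slc10a1, Slco1a1 and Slco1b2 was 19.4 ± 0.512, 14.3 ± 0.776, 10.7 ± 0.758 and 11.0 ± 0.0707. Both export sums were lowest in WT stiff, and the uptake sum was lowest in the KO groups. Abcb4 and Abcc2 make up most of the canalicular sum, so it says little about BSEP. Slc10a1 likewise makes up most of the uptake sum in every group, while Slco1a1, one of its other genes, was higher in both KO groups than in both WT groups.

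**Figure D5:**
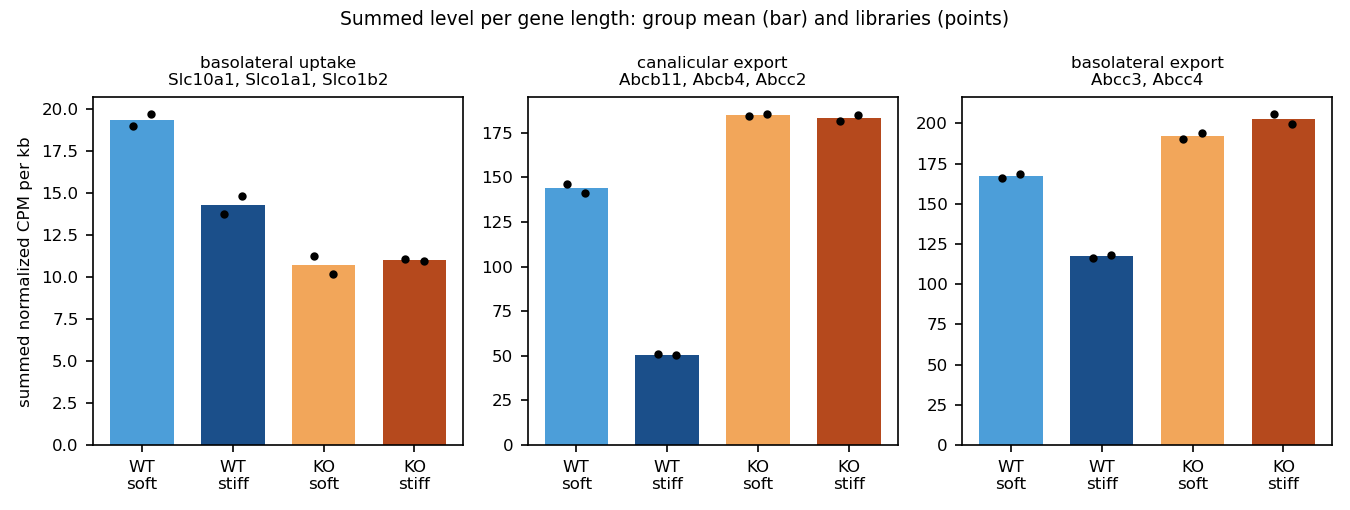
Summed normalized CPM per kilobase (vertical axes, from 0, each panel with its own scale) of the uptake, canalicular export and basolateral export genes. Bars are group means and points the 2 libraries. Canalicular export was 50.6 in WT stiff against 144 in WT soft, and uptake was 10.7 and 11.0 in the KO groups against 19.4 in WT soft.

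Of 16 other genes of bile transport, 14 could be tested, and in WT hepatocytes on the stiff hydrogel 5 fell, 1 rose and 8 were not called (median log2 fold change -0.34). The log2 fold change was negative for 9 of the 14 and positive for 5. Slc10a2, the sodium-dependent bile acid transporter best known from ileum and bile ducts, went from 13.2 ± 2.14 to 3.68 ± 0.319 CPM (mean ± SD, n = 2), a log2 fold change of -1.85 (edgeR's adjusted p = 1.37e-08). Abcc6 fell by 1.14, Slco2b1, another organic anion transporter, by 1.13 and the drug pump gene Abcb1a by 0.94 on the log2 scale (edgeR's adjusted p = 4.02e-09, 1.67e-06 and 2.53e-09). Abcg2, the canalicular pump BCRP, rose from 47.0 ± 2.82 to 118 ± 4.67 CPM (log2 fold change 1.33, edgeR's adjusted p = 4.23e-12). Slc51a and Slc51b, the subunits of the basolateral exporter OSTα/β and known FXR targets, had at most 6 and 18 counts in any library and were not tested. In KO hepatocytes none of the 14 changed, and the interaction was called for 6, positive for 5 and negative for Abcg2 (-1.44, edgeR's adjusted p = 9.29e-10). Against WT, the KO had 1 gene higher and 1 lower on soft hydrogels and 5 higher and 2 lower on the stiff hydrogel, where Slc10a2 differed by 2.23 and Abcg2 by -1.91. The shares and the medians over all genes given above for each comparison are the background for this and the next 3 lists.

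A list of 21 partners and targets of FXR and SHP also held other nuclear receptors and cofactors. Of the 21 genes, 20 were tested, and 5 fell and none rose in WT on the stiff hydrogel (median log2 fold change -0.20). Hnf4a, the hepatocyte nuclear factor that activates many liver genes, went from 372 ± 9.46 to 189 ± 4.66 CPM (log2 fold change -0.98, standard error 0.042, edgeR's adjusted p = 2.44e-12) and was at 423 ± 3.95 and 426 ± 16.6 CPM in KO soft and stiff. Klb and Fgfr4, whose products form the receptor for the intestinal hormone that represses bile acid synthesis, fell by 1.09 and 0.75 on the log2 scale (edgeR's adjusted p = 5.31e-04 and 4.27e-05). Of the genes listed as FXR targets, Insig2, a regulator of sterol sensing, fell by 0.68 and Fetub by 0.53 (edgeR's adjusted p = 8.90e-10 and 1.56e-08). Mafg (-0.20), Sdc1 (-0.22) and Pltp (0.24) were under the size threshold, and Apoc2 had at most 13 counts in any library. Gpbar1, the membrane bile acid receptor, had 0 counts in all libraries, which allows up to 0.167 CPM. No gene of the list changed in KO, and the interaction was called for 5, all positive. KO against WT gave 1 higher and 1 lower on soft hydrogels and 7 higher and 2 lower on the stiff hydrogel.

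Of 15 genes for bile acid synthesis and conjugation, 13 were tested, and 6 fell in WT on the stiff hydrogel (median log2 fold change -0.39). Baat, which joins bile acids to amino acids, went from 44.9 ± 0.177 to 17.5 ± 0.682 CPM (log2 fold change -1.36, edgeR's adjusted p = 2.49e-10) and Cyp8b1, needed for cholic acid, from 61.3 ± 2.19 to 25.6 ± 2.38 CPM (-1.26, adjusted p = 3.69e-10). Scp2 and Acox2, which act in peroxisomal shortening of the side chain, fell by 0.81 and 0.77 (edgeR's adjusted p = 1.42e-11 and 1.06e-08). Cyp7a1, the rate-limiting enzyme of the classical pathway, had at most 2 counts and Hsd3b7 at most 4, and neither was tested. None of the 13 changed in KO, and the interaction was called for 4, all positive. KO against WT gave 2 lower on the soft hydrogel and 5 higher and 2 lower on the stiff hydrogel.

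Of 13 tested genes that anchor and deliver transporters to the canalicular membrane, 1 rose and 1 fell in WT on the stiff hydrogel (median log2 fold change 0.030), a share near the 19.3% of all genes. An adjusted p under 0.05 from edgeR was reached by 7 of the 13, against 5859 of all 14279 tested genes. Msn, the gene of moesin, which links membrane proteins to actin, rose from 219.9 ± 10.6 to 636 ± 0.0969 CPM (log2 fold change 1.53, edgeR's adjusted p = 5.62e-15). The other linker genes of the list, Ezr (0.45) and Rdx (-0.22), went opposite ways under the size threshold (edgeR's adjusted p = 2.04e-06 and 8.76e-04). Pdzk1, a scaffold that binds transporter tails, went from 6.17 ± 0.479 to 2.88 ± 0.526 CPM (-1.11, edgeR's adjusted p = 1.05e-04). No gene of this list changed in KO, and Msn (interaction -1.53) and Pdzk1 (0.75) were its 2 genes past the interaction test. KO against WT gave 1 higher and 1 lower on soft hydrogels and 1 higher and 3 lower on the stiff hydrogel.

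Markers of other liver cells moved along with these lists in the WT comparison. Beside the fall of the 5 transporters, 4 of 6 Kupffer cell markers (Clec4f, Vsig4, Marco and Cd5l), 3 of 5 endothelial markers (Clec4g, Stab2 and Kdr) and 2 of 5 tested stellate markers (Pdgfrb and Dcn) fell, with Col1a1 rising by 0.78. Over all tested genes, 9.26% were called lower and 10.0% higher in this comparison. Among hepatocyte markers Asgr1 (-0.82) and Tat (-0.72) fell, and Alb (0.080), Ttr (0.031), Apoa1 (-0.43) and Cps1 (-0.24) were under the size threshold. Of the cholangiocyte markers, Krt19 rose by 3.30, from 2.13 ± 0.448 to 20.6 ± 0.638 CPM, and the other 3 tested were not called. Their part in the transporter results was not tested.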

How the data were processed

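Poly-A RNA of mouse primary hepatocytes was sequenced in 8 libraries, 2 in each of 4 groups, which were assigned from the sample titles. For alignment of the read pairs the authors used HISAT2 2.0.5 and for counting featureCounts, and they deposited raw counts per gene, 1 column per library, with no normalization. The deposited table also gives each gene's length in bases and position. The submitters' processing notes name build mm9, which could not be checked here. The positions of the 10 genes differ from those of the GRCm38 annotation used here for shared sequence. They are therefore printed as deposited with no build and cannot be set against the GRCm38.p6 promoter windows. The annotation release, the strand setting and the handling of reads that match several genes are not given in the sources used here.

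The main tool was edgeR 4.0.16 under R 4.3.3, and DESeq2 1.42.0 served as an alternative. After filterByExpr by group and TMM scaling, glmQLFit was run on the 8 libraries together (4 residual degrees of freedom, common biological coefficient of variation 0.0542), and each comparison used glmQLFTest with Benjamini-Hochberg adjustment over the 14279 tested genes. Thresholds were 0.05 on the adjusted p and 0.5 on the size of the log2 fold change, as in the study's methods. Levels per kilobase are normalized CPM divided by the deposited gene length. The members, the other gene lists and the tests were chosen with earlier results of these data known. The text names all 10 members, Yap1, Wwtr1, genes of each list changed in WT between the hydrogels (up to 4 per direction by size of change) or not tested, the hepatocyte markers, the sex-linked genes and the 3 genes most like Nr1h4 and Abcb4. Rxra, the other genes listed as FXR targets, Ezr and Rdx were chosen after their values were seen. On simulated counts with 200 of 14279 genes changed by a log2 fold change of 1, the fit recovered 97.5% with 17 other genes called for WT stiff against soft, and 94.0% with 8 others for KO. The changed genes were drawn above a minimum mean count that Nr0b2 does not reach. The spread was the fitted one, and all other genes were left unchanged. These rates therefore do not cover Nr0b2, changes near the size threshold or a comparison in which many genes change. The alternatives covered the tool, scaling, filter, fold threshold, replicate block, robust estimation, libraries fitted and each library left out. Replicates differed by more than sampling noise, with chi-square per degree of freedom between 2.62 and 5.45 over genes with at least 10 counts. Promoter sequences came from RefSeq (GRCm38.p6), and plots were made in Python 3.11.15 with matplotlib 3.10.9.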

Additional observations from a re-analysis of the deposited data

Results flagged for a closer look

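The stiffness effect differed between WT and KO hepatocytes for 6 of the 10 genes by the interaction test itself (edgeR's quasi-likelihood test, p under 0.05 after Benjamini-Hochberg adjustment over all tested genes, with no threshold on size). On the log2 scale, the KO effect minus the WT effect was 1.74 for Abcb4, 1.49 for Abcc4, 1.43 for Abcc2, 1.13 for Slco1a1, 0.97 for Slco1b2 and 0.45 for Abcc3. The sign was positive for all 6, and at the same threshold 4192 of the 14279 tested genes passed. For Abcc3 the WT effect was -0.38 and the KO effect 0.074, both under the size threshold of 0.5.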

How the results depend on the processing

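With 2 libraries per group, depth limits Nr0b2, which had 3 to 11 counts per library and no value with a filter of at least 10 counts in every library, and to a lesser degree Slco1a1 in WT stiff (61 and 66 counts). The number of changed members was 5 to 6 over the alternatives for WT stiff against soft, 0 throughout for KO, 4 to 6 for the interaction and 4 to 7 for KO against WT on the stiff hydrogel, each within 1.5 times the reported count. For KO against WT on the soft hydrogel the reported 5 became 8 without a minimum fold change (18.4% of all genes) and 2 with an absolute log2 fold change over 1 (2.47% of all genes), by construction of the threshold, and 5 to 6 with single libraries left out. Over all tested genes the KO hydrogel comparison gave 3 changed genes and 50 without a filter on low counts, and the cause was not tested. No scaling moved the median of all genes by 0.1.

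Signs turned only for values that had not been called. Each range below is that of the log2 fold change with 1 library left out, and the library named is the one whose removal turned the sign. In the WT hydrogel comparison Nr0b2 ran from -0.57 (without WT soft replicate 1) to 1.64, with -0.012 without WT stiff replicate 1. In the KO hydrogel comparison Slc10a1 ran from -0.031 (without KO soft replicate 2) to 0.30, Slco1b2 from -0.35 to 0.11 (without KO stiff replicate 1), Abcb11 from -0.14 to 0.11 (without KO stiff replicate 1, and 0.058 without KO soft replicate 2), Abcb4 from -0.046 to 0.0094 (without KO stiff replicate 1) and Abcc2 from -0.038 to 7.9e-05 (without KO soft replicate 2). The interaction of Nr0b2 ran from -1.14 (without WT soft replicate 2) to 1.07, with -0.12 without KO soft replicate 2 and -0.077 without KO stiff replicate 1, and that of Abcb11 from -0.0022 (without KO stiff replicate 2) to 0.25. For KO against WT on soft hydrogels Nr0b2 ran from -0.86 to 1.35 (without WT soft replicate 2), with 0.33 without KO soft replicate 2, and was at 0.00024 with upper quartile scaling and 0.040 with library size only. For KO against WT on stiff hydrogels Nr1h4 ran from -0.025 (without KO stiff replicate 2) to 0.063, Nr0b2 from -0.10 (without KO stiff replicate 1) to 0.48, with -0.017 without WT stiff replicate 2, and Slco1b2 from -0.31 to 0.16 (without KO stiff replicate 1), with 0.090 without WT stiff replicate 2 and 0.0047 with library size only. The causes were not tested.

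Some values crossed the size threshold upward. Abcc3 on the stiff hydrogel reached 0.52 with upper quartile scaling, 0.56 with library size only, 0.50 without WT stiff replicate 2 and 0.51 without KO stiff replicate 2. Abcc2 on the soft hydrogel reached 0.53 with library size only and 0.51 without WT soft replicate 1, and the interaction of Slc10a1 reached 0.56 without KO soft replicate 1.

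Libraries of the same replicate number showed no clear common deviation across the groups, which does not tell whether they shared a mouse or culture. Deviations of same-numbered libraries correlated between -0.101 and 0.042 over genes. With the replicate number as a block, 5 members changed in WT between hydrogels, 0 in KO, 5 in the interaction, 5 between genotypes on soft and 7 on stiff hydrogels, the last through Abcc3.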

Other observations

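Across the 8 libraries, the genes whose log2 CPM was most like that of Abcb4, the member with the largest WT stiffness effect, were Arrdc3, Txnip and Hnf4a, each with a Pearson r of 0.999 among 10036 genes with a mean of at least 100 counts. Arrdc3 and Txnip encode arrestin-domain proteins. For Nr1h4 they were Tbca (r = 0.987), which encodes a tubulin-folding cofactor, Acyp1 (0.969) and Chchd6 (0.958). The points are 4 groups of 2 libraries that share their groups' conditions, so the coefficients describe similarity and carry no p.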
